A study of Homo sapiens with 21 samples.

Results

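The lysyl oxidase family comprises 5 genes, LOX, LOXL1, LOXL2, LOXL3 and LOXL4, which were chosen by name out of the 57820 genes of the count table. Earlier results of these data were known when the family was chosen. All 5 passed the filter on low counts (1 count or more per library on average), as did 30549 genes in all. Their transcripts were measured by RNA-seq of A673, an established cell line from Ewing sarcoma that carries the EWS/FLI fusion gene. The 21 libraries formed 7 groups of 3, numbered 1 to 3 within each group. The cells received an shRNA on day 1 and a retroviral cDNA on day 5, and selection, with puromycin at 2 µg/ml and hygromycin at 400 µg/ml, ended on day 16. In iLuc the shRNA was directed at luciferase and the vector was empty, so the endogenous fusion was kept, and iLuc over iEF is called endo-EF here. In iEF the shRNA was directed at the 3′ UTR of the EWS/FLI transcript and the vector was empty, and this was the depleted baseline. The remaining 5 groups were depleted in the same way and received a cDNA: WT-EF (full-length EWS/FLI), del22 (no EWS domain, the negative control), DAF (full-length, with tyrosines of the N-terminal repeats changed to alanine), mut9 (a large internal deletion of the EWS domain) and DAF-mut9 (mut9 with its remaining repeat tyrosines changed to alanine). All 7 groups derive from this single line, and the cDNAs were expressed from a retroviral vector and not from the native locus.

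Lysyl oxidases are secreted, copper-dependent amine oxidases. They convert lysine and hydroxylysine side chains of collagens and elastin to reactive aldehydes, which then condense into the covalent cross-links that stiffen the extracellular matrix. LOX and LOXL1 are made with a propeptide that is cleaved outside the cell, whereas LOXL2, LOXL3 and LOXL4 carry scavenger receptor cysteine-rich domains before the shared catalytic domain. LOX was already known as a gene repressed by EWS/FLI and was one of the study's test genes, so its direction in endo-EF is not independent evidence of repression.

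Promoter windows, from 250 bases before to 50 bases after the outermost listed start, are shown for the members that RefSeq sequences (GRCh38.p14) covered here. Each of these genes was called lower in endo-EF when all libraries were fitted. Capitals mark GGAA or its reverse complement TTCC (the core bound by ETS factors such as FLI1) and ACGTG or CACGT (the core of the hypoxia response element). The windows lie at chr5:122078210-122078509 (minus strand, LOX), chr15:73926212-73926511 (plus strand, LOXL1), chr2:74553893-74554192 (minus strand, LOXL3) and chr10:98268145-98268444 (minus strand, LOXL4), and all are printed 5′ to 3′ on the gene's strand.
LOX: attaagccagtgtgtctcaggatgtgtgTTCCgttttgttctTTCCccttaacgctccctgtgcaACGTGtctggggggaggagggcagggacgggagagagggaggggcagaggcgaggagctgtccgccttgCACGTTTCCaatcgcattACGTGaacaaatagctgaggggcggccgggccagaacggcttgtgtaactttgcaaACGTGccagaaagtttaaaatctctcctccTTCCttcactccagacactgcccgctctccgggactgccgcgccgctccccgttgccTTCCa
LOXL1: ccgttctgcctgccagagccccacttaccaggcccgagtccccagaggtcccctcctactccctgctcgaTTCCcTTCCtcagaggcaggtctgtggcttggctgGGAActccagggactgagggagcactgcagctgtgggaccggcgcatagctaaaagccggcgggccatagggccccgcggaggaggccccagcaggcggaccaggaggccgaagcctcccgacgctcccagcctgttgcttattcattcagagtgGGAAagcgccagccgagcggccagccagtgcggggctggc
LOXL3: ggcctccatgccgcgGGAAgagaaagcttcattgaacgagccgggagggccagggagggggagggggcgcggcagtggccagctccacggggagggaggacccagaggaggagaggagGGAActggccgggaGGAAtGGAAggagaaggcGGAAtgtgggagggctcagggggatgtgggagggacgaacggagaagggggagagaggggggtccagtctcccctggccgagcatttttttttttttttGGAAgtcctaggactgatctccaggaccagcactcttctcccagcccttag
LOXL4: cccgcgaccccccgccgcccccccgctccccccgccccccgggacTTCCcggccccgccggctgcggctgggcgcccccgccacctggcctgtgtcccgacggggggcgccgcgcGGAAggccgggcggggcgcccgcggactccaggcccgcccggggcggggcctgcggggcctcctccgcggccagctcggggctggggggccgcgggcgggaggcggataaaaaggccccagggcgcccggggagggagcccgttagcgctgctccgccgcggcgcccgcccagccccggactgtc

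The LOX window held the ACGTG core 4 times over both strands. The same core occurred at least once in 21.4% of 35116 promoter windows and at least 4 times in 0.843% of them, and the windows of LOXL1, LOXL3 and LOXL4 held none. The GGAA core occurred 5 times in the LOX window, 4 times in that of LOXL1, 6 times in that of LOXL3 and 2 times in that of LOXL4, against a median of 3 over all windows, 95.5% of which held at least 1. The tandem GGAAGGAA is shorter than the GGAA-repeat microsatellites through which EWS/FLI acts at many genes. It was in none of the 4 windows and in 3.67% of all windows. These matches describe letters in short windows and say nothing of binding.

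On GRCh37, with the GENCODE release 44 annotation, LOX (ENSG00000113083) lies on chromosome 5 from 121398890 to 121414108 on the minus strand. LOXL1 (ENSG00000129038) lies on chromosome 15 from 74218330 to 74244478 on the plus strand. LOXL2 (ENSG00000134013, chromosome 8, 23154410 to 23282841), LOXL3 (ENSG00000115318, chromosome 2, 74759385 to 74782817) and LOXL4 (ENSG00000138131, chromosome 10, 100007447 to 100027951) lie on the minus strand. Every member shares exon bases with another gene, and the strand setting of the counting is not given in the sources used here. LOX shares 138 of its 5596 exon bases (2.47%) with SRFBP1 on the opposite strand. LOXL1 shares 335 bases (9.21%) with LOXL1-AS1, and LOXL4 shares 152 bases (4.23%) with a long noncoding RNA (ENSG00000230928). LOXL2 shares 120 bases with ENTPD4 on its own strand and 178 bases with LOXL2-AS1 on the other. LOXL3 shares the most, 936 bases with HTRA2 and 216 with DOK1, together 25.5% of its exon bases.

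Libraries held 32.9 to 46.2 M counts, so that 1 CPM (count per 1e6 of a TMM-scaled library, the level used throughout) stood for 32 to 45.2 counts. FLI1 reads, which sum the endogenous fusion and any construct, were at 70.3 ± 16.2 CPM in iLuc and 20.6 ± 0.553 in iEF (SD, n = 3). The construct groups were at 24.5 ± 2.39 CPM (WT-EF), 30.7 ± 2.52 (mut9), 36.3 ± 1.49 (DAF-mut9) and 49.5 ± 11.01 (del22), and the DAF libraries were at 36.2, 39.8 and 35.1 CPM. WT-EF thus had the lowest mean FLI1 level of the 5 constructs. The counts cover the whole gene with its 3′ UTR, so a native transcript and a cDNA may not be measured alike. Of the Ewing sarcoma markers, NKX2-2, NR0B1, STEAP1 and FLI1 were above 0 in all libraries, whereas CD99 had at most 8 counts in a library. The cause of the low CD99 counts was not tested, and absence of its transcript cannot be concluded from them. The markers of other cells that could be matched (PTPRC, EPCAM, KRT5 and ALB) summed to between 0.477 and 1.31 CPM of total counts, and their range was 1.14 to 1.31 in iLuc against 0.669 to 0.914 in iEF. Their part in the results was not tested. The replicate 2 library of iEF stood apart for some members. Among 10779 genes with a mean of at least 5 CPM, 17 were over 4-fold above both other iEF libraries in it, against 0 to 10 in the other 20 libraries. In the other direction, 21 genes were over 4-fold below both others in it, and 40 in replicate 3 of iLuc. Comparisons over iEF that rest on it are given with and without it, whereas the levels, the restored shares and the likeness of patterns include it.

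LOX, the founding member and a cross-linker of both collagen and elastin, was the most abundant lysyl oxidase transcript of depleted cells. It was at 319, 299 and 422 CPM in the iEF libraries and at 6.37, 3.98 and 3.96 CPM in iLuc, where the endogenous fusion was present. With WT-EF it was at 58.3, 28.4 and 49.5 CPM, and with mut9 at 97.6, 49.8 and 140.3 CPM. It was at 213, 179 and 125 CPM with DAF, at 250.2, 228 and 188 CPM with DAF-mut9, and at 265, 231 and 212 CPM with del22. The iLuc libraries lay below all others, and the iEF libraries above all others. By mean the order was iEF, del22, DAF-mut9, DAF, mut9, WT-EF and iLuc, in which iEF did not overlap del22 and WT-EF did not overlap iLuc, while each of the other neighbours overlapped.

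LOXL1, which acts mainly in elastic fibre assembly, varied over a narrower range. It was at 98.96, 117 and 62.4 CPM in iEF and at 15.9, 18.8 and 19.2 CPM in iLuc. WT-EF gave 50.3, 41.0 and 41.6 CPM and mut9 gave 64.8, 48.4 and 56.2 CPM. DAF, DAF-mut9 and del22 were close to each other and to iEF, with means of 81.1 ± 11.1, 95.6 ± 11.9 and 87.0 ± 10.3 CPM (SD, n = 3). The order was DAF-mut9, iEF, del22, DAF, mut9, WT-EF and iLuc. In it DAF did not overlap mut9 and WT-EF did not overlap iLuc, and the other neighbours overlapped.

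LOXL2, which cross-links collagens including the basement membrane collagen IV, had the least scattered values of iLuc, at 2.11, 1.97 and 1.88 CPM. In iEF it was at 131, 225 and 138 CPM. It was at 31.3, 31.1 and 24.0 CPM with WT-EF and at 74.6, 54.5 and 67.2 CPM with mut9. DAF gave 94.6, 127 and 97.3 CPM, DAF-mut9 gave 94.7, 125 and 111 CPM, and del22 gave 100.6, 132 and 74.2 CPM. The iLuc, WT-EF and mut9 libraries formed steps that did not overlap one another. DAF-mut9, DAF and del22 followed below iEF by mean and overlapped among themselves, and the del22 range touched those of mut9 and iEF.

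LOXL3 was the scarcest member in depleted cells and the one least separated between groups. It was at 2.73, 11.6 and 2.08 CPM in iEF, with replicate 2 far above the others, and at 1.59, 1.97 and 1.65 CPM in iLuc. WT-EF gave 1.78, 2.30 and 1.92 CPM, and the means were 2.16 ± 0.318 CPM (mut9), 3.49 ± 0.158 (DAF), 5.04 ± 0.375 (DAF-mut9) and 4.62 ± 0.954 (del22). Its order was iEF, DAF-mut9, del22, DAF, mut9, WT-EF and iLuc, and only DAF and mut9, among neighbours, did not overlap. That iEF was first rests on replicate 2, since the other 2 iEF libraries lay below every DAF, DAF-mut9 and del22 library.

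LOXL4, a collagen cross-linker of the same subgroup, was at 8.92, 83.9 and 8.40 CPM in iEF, so its iEF mean also rests on replicate 2. In iLuc it was at 0.668, 0.928 and 0.752 CPM, from 26 to 42 counts per library. It was at 1.11, 1.26 and 0.982 CPM with WT-EF and at 5.71, 5.15 and 3.43 CPM with mut9. DAF gave 5.89, 15.8 and 13.4 CPM, DAF-mut9 gave 11.9, 25.8 and 17.6 CPM, and del22 gave 8.26, 23.6 and 41.9 CPM. The order was iEF, del22, DAF-mut9, DAF, mut9, WT-EF and iLuc, and the last 4 of these groups did not overlap one another.

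**Figure D1:**
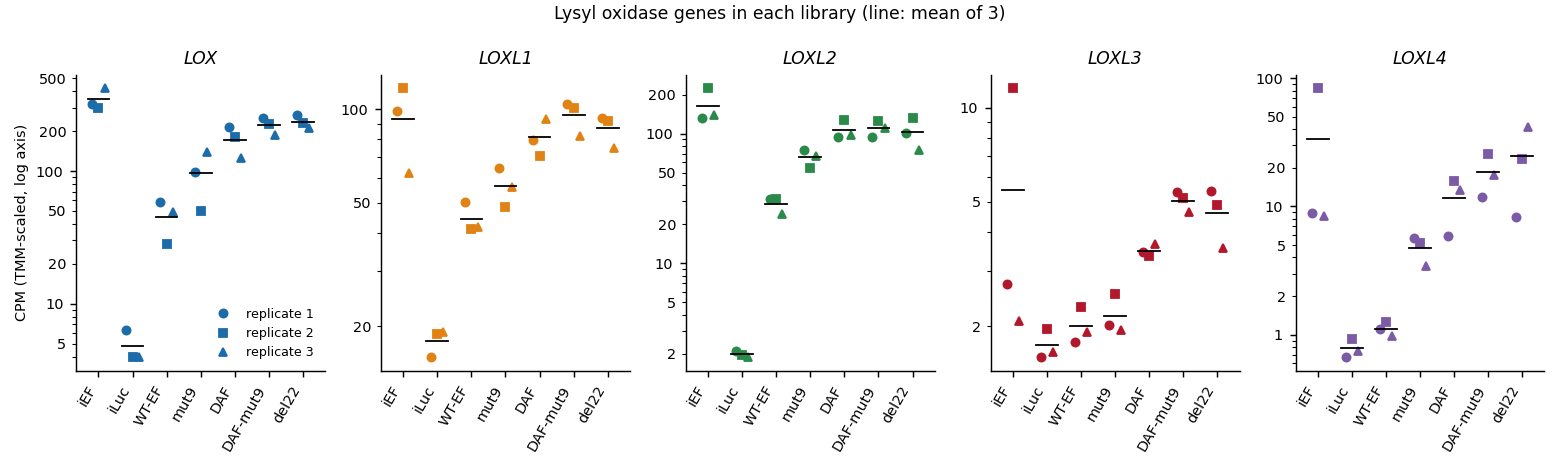
CPM of each lysyl oxidase gene in the 21 libraries by group, on a log axis with its own range in each panel, with 1 symbol per replicate number and a line at the mean of 3. In every panel the iLuc mean is lowest and the WT-EF and mut9 means lie between it and the DAF mean, although single libraries overlap for LOX and LOXL3, while replicate 2 of iEF is at 11.6 CPM for LOXL3 and 83.9 CPM for LOXL4.

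The endo-EF comparison asked which of these genes the endogenous fusion holds at a lower or higher level. All 5 were lower in iLuc than in iEF by the quasi-likelihood test of edgeR, adjusted by Benjamini and Hochberg over all genes tested (the test behind every adjusted p given here), while 22.4% of all tested genes were called lower. The members' median log2 fold change was -5.07 and that of all genes was 0.01. LOXL2 changed by -6.35 ± 0.23 on the log2 scale (SE, adjusted p = 4.49e-14), an 81.5-fold difference, and LOX by -6.20 ± 0.32 (adjusted p = 4.44e-12), a 73.8-fold difference. LOXL1 changed by -2.35 ± 0.18 (adjusted p = 1.35e-09) and LOXL4 by -5.07 ± 0.67 (adjusted p = 3.01e-06). LOXL3 changed by -1.49 ± 0.36 (adjusted p = 0.00232). Each was lower in 3 of 3 replicate sets. Without replicate 2 of iEF the value for LOXL4 was -3.66 ± 0.46 (adjusted p = 1.66e-06), whereas that for LOXL3 was -0.52 ± 0.21 and was no longer called (adjusted p = 0.0569). In bulk RNA, fewer cells that express a gene and less RNA per cell cannot be told apart. The study describes the numbered sets as repeats of the whole knockdown and rescue experiment in this line, so the p-values measure the spread between repeats of 1 cell line.

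Return of full-length EWS/FLI lowered the members again, though less far. In WT-EF over iEF all 5 were called lower, against 16.9% of all genes. LOX changed by -2.97 ± 0.27 (adjusted p = 6.28e-08), LOXL2 by -2.49 ± 0.18 (adjusted p = 3.31e-09) and LOXL1 by -1.06 ± 0.17 (adjusted p = 7.95e-05). LOXL4 changed by -4.52 ± 0.65 (adjusted p = 1.66e-05), and by -3.13 ± 0.44 without replicate 2 of iEF. LOXL3 changed by -1.29 ± 0.36 (adjusted p = 0.0100), and this call was lost without replicate 2 of iEF, where the value was -0.32 ± 0.21 (adjusted p = 0.301), and without replicate 2 of WT-EF. Set directly against iLuc, WT-EF left 3 members higher, against 9.78% of all genes. LOXL2 was higher by 3.86 ± 0.21 (14.5-fold, adjusted p = 8.80e-11), LOX by 3.23 ± 0.29 (9.39-fold, adjusted p = 8.40e-08) and LOXL1 by 1.29 ± 0.18 (2.45-fold, adjusted p = 1.99e-05). For LOXL3 the difference was 0.20 with an approximate 95% interval of -0.60 to 1.001, and for LOXL4 it was 0.55 with an interval of -1.001 to 2.11, so neither differed detectably. FLI1 itself differed between WT-EF and iLuc by -1.51 ± 0.13 (adjusted p = 7.36e-08), and its part in these differences was not tested. Since the counts may not measure a native transcript and a cDNA alike, this value is not a measure of the relative level of the fusion.

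The shortened mut9 form also lowered the family. All 5 members were called lower in mut9 than in iEF, against 8.33% of all genes. LOX changed by -1.89 ± 0.26 (adjusted p = 3.05e-05) and LOXL2 by -1.28 ± 0.18 (adjusted p = 2.56e-05), and both calls held in all 6 fits with an iEF or mut9 library left out, although that of LOXL2 was lost on the ComBat-adjusted values (limma, adjusted p = 0.242). LOXL1 changed by -0.71 ± 0.17 (adjusted p = 0.00726), LOXL3 by -1.18 ± 0.36 (adjusted p = 0.0305) and LOXL4 by -2.32 ± 0.57 (adjusted p = 0.00772). Without replicate 2 of iEF these were -0.48 (adjusted p = 0.0698), -0.21 (adjusted p = 0.624) and -0.98 (adjusted p = 0.129), and 2 members stayed called. Without replicate 2 of mut9, 2 members were called as well.

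With tyrosines replaced, fewer members passed the test. In DAF over iEF 2 members were called lower, against 4.02% of all genes. LOX changed by -1.01 ± 0.26 (adjusted p = 0.0183) and LOXL2 by -0.61 ± 0.17 (adjusted p = 0.0329). The LOX call was lost without replicate 3 of iEF or replicate 1 or 3 of DAF, and the LOXL2 call in 5 of the 6 fits with a library left out. LOXL1 (-0.17), LOXL3 (-0.46) and LOXL4 (-1.22, adjusted p = 0.215) did not pass. Without replicate 2 of iEF these were at 0.0539, 0.49 and 0.18 and did not pass either. In DAF-mut9 over iEF 0 members were called, where 3.40% of all genes were called in either direction, and 2 had an unadjusted p under 0.05. These were LOX, at -0.64 ± 0.26 (adjusted p = 0.223), and LOXL2, at -0.56 ± 0.17 (adjusted p = 0.0886). DESeq2 likewise called 0 of the 5. In del22 over iEF only LOXL2 was called lower, by -0.68 ± 0.17 (adjusted p = 0.0368), against 1.79% of all genes, although the del22 libraries (74.2 to 132 CPM) and the iEF libraries (131 to 225 CPM) overlapped. This call was lost without replicate 2 or 3 of iEF and without replicate 1 or 3 of del22, and in the fit with no term for the replicate set.

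Without replicate 2 of iEF, LOXL3 was called higher in DAF-mut9 by 1.02 ± 0.21 (adjusted p = 0.00703) and in del22 by 0.88 ± 0.21 (adjusted p = 0.0221). With all libraries the same values were 0.07 ± 0.35 and -0.08 ± 0.35, neither of which passed. LOXL4 moved likewise, from -0.54 to 0.86 in DAF-mut9 and from -0.13 to 1.23 in del22, and did not pass in either form (adjusted p = 0.338 and 0.130 without the library). No direction over iEF can therefore be given for LOXL3 and LOXL4 in DAF, DAF-mut9 or del22.

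**Figure D2:**
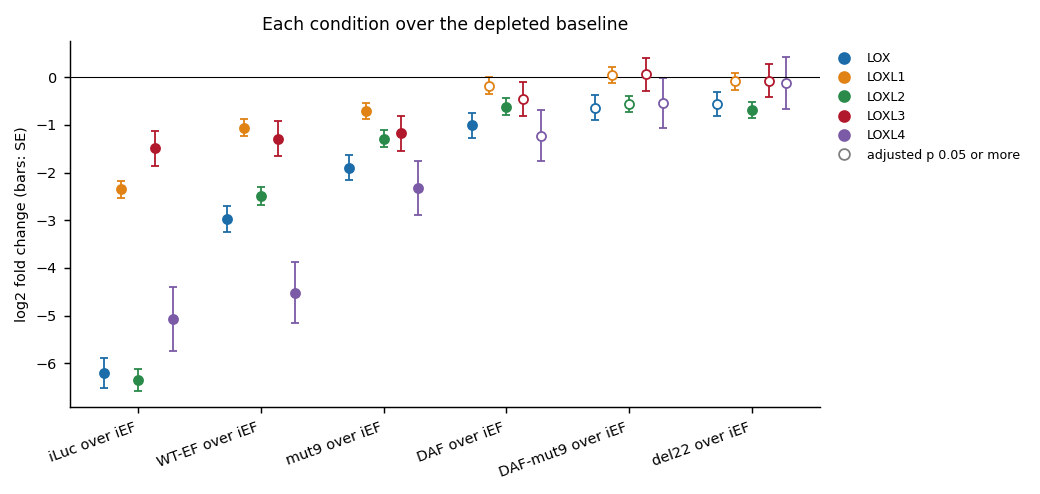
Log2 fold change over iEF (vertical axis, bars are the SE) of the 5 genes in the 6 other groups, with filled symbols for adjusted p below 0.05. All 5 symbols are filled and below 0 for iLuc, WT-EF and mut9, 2 are filled for DAF, 0 for DAF-mut9 and 1 for del22.

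**Figure D3:**
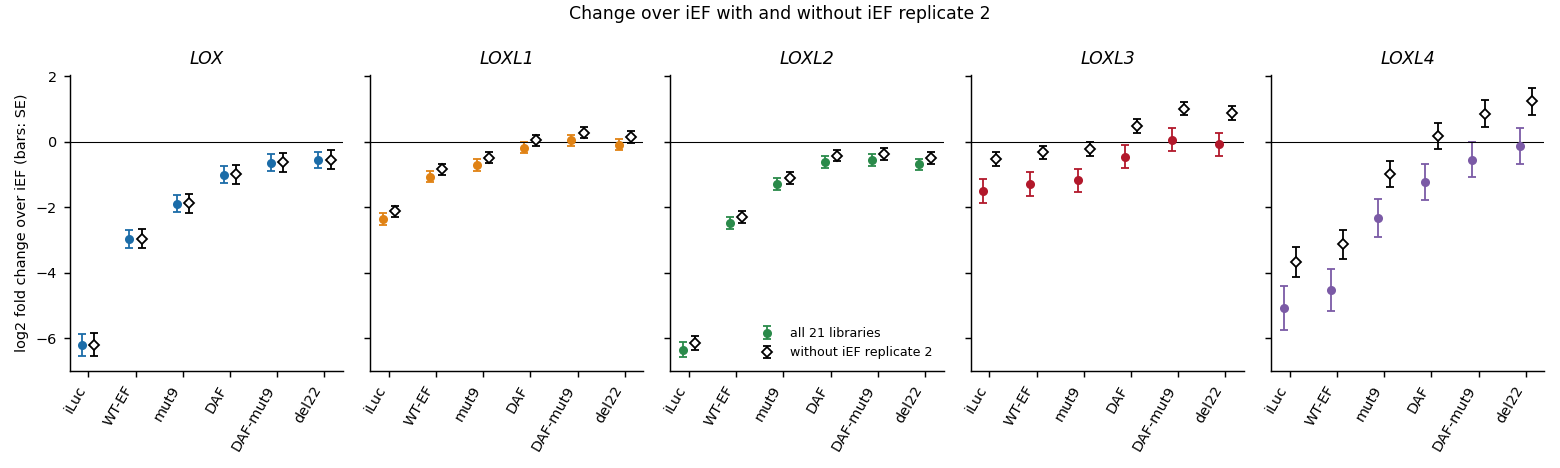
Log2 fold change over iEF (bars are the SE) with all 21 libraries (filled circles) and without replicate 2 of iEF (open diamonds), in 1 panel per gene. The values of LOX hardly move, while those of LOXL3 and LOXL4 rise in all 6 groups, for LOXL3 from -1.49 to -0.52 in iLuc.

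Direct comparisons of constructs asked whether these steps differ from one another. mut9 left 3 members higher than WT-EF did, against 4.95% of all genes. LOXL2 was higher by 1.21 ± 0.18 (adjusted p = 2.61e-04), a call that held with each library left out in turn but was lost on the ComBat-adjusted values (limma, adjusted p = 0.380). LOX was higher by 1.08 ± 0.26 (adjusted p = 0.0138), lost in 3 of 6 such fits and on the ComBat-adjusted values (limma, adjusted p = 0.418). LOXL4 was higher by 2.20 ± 0.62 (adjusted p = 0.0389), lost in 5 of 6 such fits and with no replicate block (adjusted p = 0.115). The difference in LOXL1 was 0.35 (interval -0.02 to 0.73) and that in LOXL3 was 0.11 (interval -0.68 to 0.90), and neither passed.

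DAF left 4 members higher than WT-EF did, against 14.3% of all genes. The differences were 1.97 ± 0.27 for LOX (adjusted p = 1.09e-05), 1.88 ± 0.18 for LOXL2 (adjusted p = 1.77e-07), 0.88 ± 0.17 for LOXL1 (adjusted p = 6.11e-04) and 3.29 ± 0.62 for LOXL4 (adjusted p = 4.43e-04). All 4 calls held with each library left out in turn, and that of LOXL2 was lost on the ComBat-adjusted values (limma, adjusted p = 0.0685). LOXL3 was at 0.83 ± 0.36 and did not pass (adjusted p = 0.101, and 0.00352 when only both compared groups were fitted), although the 3 DAF libraries lay above the 3 WT-EF libraries. FLI1 was also higher in DAF than in WT-EF, by 0.60 ± 0.13 (adjusted p = 0.00173), and its part was not tested.

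DAF and mut9 were then set against each other. In mut9 over DAF 2 members were called lower, against 3.48% of all genes, namely LOX by -0.89 ± 0.26 (adjusted p = 0.0442) and LOXL2 by -0.67 ± 0.17 (adjusted p = 0.0221). LOX was lower in 2 of 3 replicate sets and its groups overlapped. With a library left out the LOX call held in 2 of 6 fits and the LOXL2 call in 3 of 6, and both were lost on the ComBat-adjusted values (limma, adjusted p = 0.386 and 0.652). The LOX call was also lost with no replicate block (adjusted p = 0.104) and with only these groups fitted (adjusted p = 0.133), while DESeq2 called LOXL1 as well. LOXL1 (-0.53), LOXL3 (-0.72) and LOXL4 (-1.10) were lower in 3 of 3 replicate sets and did not pass (adjusted p from 0.0708 to 0.289). In DAF over del22 0 members were called, where 0.972% of all genes were called in either direction, and 0 had an unadjusted p under 0.05. The values ran from -1.09 for LOXL4 (interval -2.25 to 0.06) to 0.07 for LOXL2 (interval -0.31 to 0.45). DESeq2 also called 0, whereas a fit of only these groups called LOX (-0.49, adjusted p = 0.0268) and LOXL4 (-0.93, adjusted p = 0.0212) lower in DAF.

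Replacing the tyrosines left in mut9 raised the whole family. All 5 members were called higher in DAF-mut9 than in mut9, against 5.15% of all genes. The differences were 1.26 ± 0.26 for LOX (adjusted p = 0.00272), 0.75 ± 0.17 for LOXL1 (adjusted p = 0.00592), 0.73 ± 0.17 for LOXL2 (adjusted p = 0.00830), 1.24 ± 0.36 for LOXL3 (adjusted p = 0.0283) and 1.78 ± 0.55 for LOXL4 (adjusted p = 0.0441). For each gene the 3 DAF-mut9 libraries lay above the 3 mut9 libraries, but the share of all genes separated in this way was not computed. The LOXL3 and LOXL4 calls were lost with no replicate block (adjusted p = 0.0663 and 0.0754). The LOX call held in all 6 fits with a library left out, those of LOXL1 and LOXL2 in 5 and 4 of them, and those of LOXL3 and LOXL4 in 1 each, so that between 1 and 4 members stayed called, the fewest without replicate 2 of mut9. On the ComBat-adjusted values, which hold 4 of the members, LOX and LOXL2 were not called (limma, adjusted p = 0.170 and 0.602).

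A test of the difference itself compared the effect of the alanine changes in the shortened form (DAF-mut9 over mut9) with that in the full-length form (DAF over WT-EF), although the tyrosines changed are not the same set. LOXL2 alone was called, and lower, by -1.15 ± 0.25 (adjusted p = 0.00981), against 2.82% of all genes. Its tyrosine effect was 0.73 in the shortened form and 1.88 in the full-length form. By mean it was at 106 CPM with DAF, 110 with DAF-mut9 and 102 with del22, while mut9 was above WT-EF by 1.21. The difference thus lay mainly between the forms without alanine changes. The call was lost without replicate 2 or 3 of WT-EF and without replicate 1 of mut9, and on the ComBat-adjusted values (limma, adjusted p = 0.656). The differences were -0.71 ± 0.36 for LOX, -0.13 ± 0.24 for LOXL1, 0.41 ± 0.50 for LOXL3 and -1.51 ± 0.81 for LOXL4, none of which passed. LOXL4 was called when only the compared groups were fitted (adjusted p = 0.0329). With no low-count filter LOX and LOXL4 were called (adjusted p = 0.00324 and 3.31e-06). Of the 2 genes picked from each pathway list below, BMP1 (-1.20, adjusted p = 0.00217), PLOD2 (-1.03, adjusted p = 0.013) and PLOD3 (-0.68, adjusted p = 0.0176) were also called lower. No other picked gene passed.

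**Figure D4:**
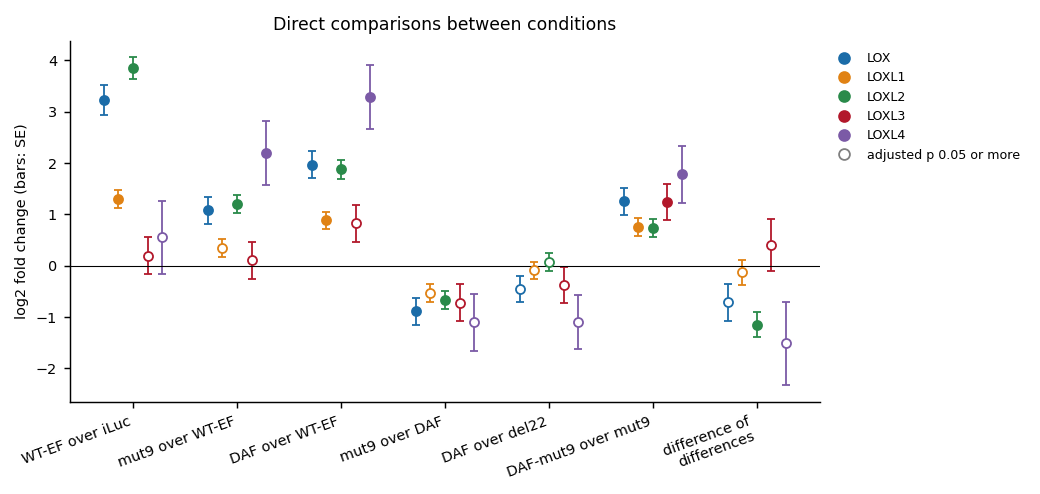
Log2 fold change (bars are the SE) of the 5 genes in the 6 direct comparisons and in the difference between the 2 tyrosine effects, with filled symbols for adjusted p below 0.05. All 5 are filled and above 0 for DAF-mut9 over mut9, 4 for DAF over WT-EF, and LOXL2 alone is filled in the difference.

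The share of the endo-EF change that each construct restored was computed within replicate sets as the log2 CPM difference from iEF over that of iLuc. Construct and iLuc share the iEF library of the set, so these shares are descriptions with no test. WT-EF restored 43.5%, 54.6% and 46.0% of the change in LOX and 34.8%, 41.9% and 40.9% of that in LOXL2. For LOXL4 the shares were 81.2%, 93.5% and 89.3%, higher than those of LOX and LOXL2 in every set. mut9 restored 31.8% ± 9.06 for LOX, 20.2% ± 8.67 for LOXL2 and 39.2% ± 22.5 for LOXL4 (SD, n = 3). DAF restored 16.1% ± 8.77 for LOX and 9.40% ± 2.32 for LOXL2, and del22 restored 8.52% ± 5.50 and 10.7% ± 4.08. For LOXL1 the WT-EF share was 42.9% ± 12.6, and those of DAF ran from -33.8% to 27.5%. The LOXL3 shares are not interpretable for any construct, since the endo-EF change they divide by was not called without replicate 2 of iEF (-0.52). Their values ran from 36.0% to 91.3% for WT-EF, from 28.6% to 86.0% for mut9 and from -248% to 70.3% for DAF.

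Per kb of merged exon, the scale on which genes were compared, LOX was highest in iEF at 61.9 ± 11.9 CPM per kb, followed by LOXL2 at 27.5 ± 8.73, LOXL1 at 25.5 ± 7.67, LOXL4 at 9.38 ± 12.1 and LOXL3 at 1.21 ± 1.17 (SD, n = 3). The family summed to 126 ± 20.9 CPM per kb in iEF and to 6.72 ± 0.285 in iLuc. The construct groups summed to 25.9 ± 3.96 (WT-EF), 45.4 ± 10.6 (mut9), 74.9 ± 5.45 (DAF), 90.6 ± 8.92 (DAF-mut9) and 91.0 ± 6.77 (del22) CPM per kb. The make-up of the sum differed as well. LOX made 50.6% ± 14.01 of it in iEF and 12.8% ± 4.33 in iLuc, while LOXL1 made 20.3% ± 5.34 in iEF and 73.3% ± 4.46 in iLuc. In cells with the endogenous fusion LOXL1 was thus the main lysyl oxidase transcript, at 4.94 ± 0.497 CPM per kb against 0.852 ± 0.248 for LOX and 0.332 ± 0.0191 for LOXL2. With WT-EF the LOXL1 share was 47.3% ± 2.61 and that of LOX was 30.8% ± 7.13.

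**Figure D5:**
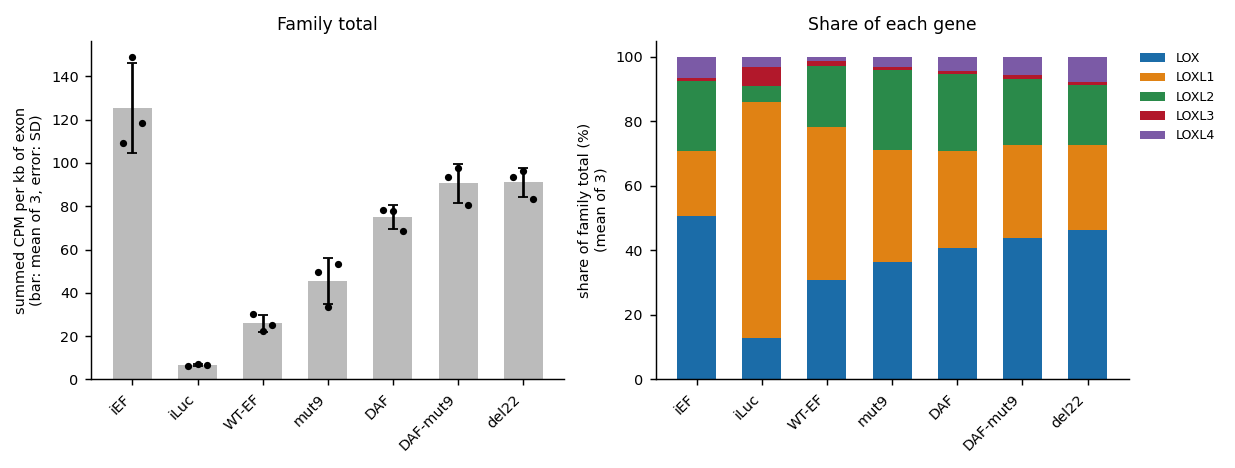
Left, summed CPM per kb of exon of the 5 genes by group (bar, mean of 3; error bar, SD; points, libraries). Right, mean share in percent of each gene in that sum, where LOXL1 makes 73.3% in iLuc and 20.3% in iEF.

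Genes that share exon bases with a member were read in the same fit. SRFBP1, which overlaps LOX, was at 93.4 ± 20.3 CPM in iEF and 45.3 ± 9.17 in iLuc (SD, n = 3). It was lower in endo-EF by -1.04 (adjusted p = 1.64e-05), whereas LOX was lower by -6.20, and it was not called in any construct over iEF. LOXL2-AS1, the antisense neighbour of LOXL2, was at 12.3, 24.7 and 11.8 CPM in iEF and at 0.385, 0.884 and 0.426 CPM in iLuc. It changed by -4.81 in endo-EF (adjusted p = 2.01e-11), by -2.51 with WT-EF (adjusted p = 8.85e-08) and by -1.33 with mut9 (adjusted p = 2.98e-04), beside -6.35, -2.49 and -1.28 for LOXL2. It was also lower with DAF by -0.78 (adjusted p = 0.0359) and with DAF-mut9 by -0.87 (adjusted p = 0.0333), beside -0.61 and -0.56 for LOXL2, of which the latter did not pass. In the difference of the tyrosine effects it was at -1.28 (adjusted p = 0.0297), beside -1.15 for LOXL2. Without strand the reads of the pair cannot be told apart where they overlap. LOXL1-AS1 changed by -0.69 in endo-EF (adjusted p = 0.0146) and the noncoding RNA that overlaps LOXL4 by -2.02 (adjusted p = 0.00711). HTRA2, which shares the most bases with LOXL3, was at -0.38 in endo-EF and did not pass (adjusted p = 0.106), and ENTPD4 was at -0.14 (adjusted p = 0.359). DOK1 changed by -0.59 (adjusted p = 0.0372).

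The pathway around the enzymes was read through 6 lists of genes taken by function, each given by the counts of its members called in endo-EF and beside the median of all genes (0.01). Among 8 substrates (collagens and elastin), 7 were lower and 0 higher, with a median log2 fold change of -1.67, and with WT-EF 6 were lower (median -1.004). COL1A1, a chain of collagen I, was lower by -4.67 in endo-EF (adjusted p = 3.34e-10), by -2.54 with WT-EF and by -0.98 with mut9 (adjusted p = 0.0216), the last of which was lost without replicate 2 of iEF (adjusted p = 0.0946). COL3A1, the chain of collagen III, was lower by -2.56 in endo-EF (adjusted p = 2.31e-06) but was at 0.59 with WT-EF (adjusted p = 0.181), and its iEF libraries were at 51.6, 270.7 and 59.1 CPM, so replicate 2 stood apart here too. Without it, COL3A1 was lower by -1.72 in endo-EF (adjusted p = 1.15e-07) and was called higher in all 5 construct groups, by 1.42 with WT-EF (adjusted p = 6.19e-06) and by 1.18 to 1.55 in the others. With DAF 0 substrates were lower and 2 were higher.

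Of 5 genes for lysine hydroxylation and its glycosylation, the step that prepares lysines for cross-linking, 4 were lower and 1 higher in endo-EF (median -1.36). PLOD2, which hydroxylates the telopeptide lysines of collagen, was at 505 ± 145 CPM in iEF, 94.1 ± 11.7 in iLuc and 88.6 ± 8.13 with WT-EF (SD, n = 3). It was lower by -2.41 in endo-EF (adjusted p = 3.81e-10), by -2.49 with WT-EF (adjusted p = 1.30e-09) and by -1.51 with mut9 (adjusted p = 1.73e-06), and was at -0.31 with DAF (adjusted p = 0.304). PLOD3 was lower by -1.76 in endo-EF (adjusted p = 1.23e-10) and by -1.09 with WT-EF (adjusted p = 2.99e-07). In DAF, DAF-mut9 and del22 over iEF 0 of the 5 were called, although 2 were called higher in DAF without replicate 2 of iEF.

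Of 10 genes for processing of the pro-enzymes and for scaffolds, 5 were lower and 2 higher in endo-EF (median -0.98). TLL1, a processing gene of this list, was higher by 2.36 in endo-EF (adjusted p = 3.94e-08). It was also called higher with mut9, DAF, DAF-mut9 and del22, and was at -0.55 with WT-EF (adjusted p = 0.0808). BMP1, a protease that cleaves the LOX propeptide, was at 73.7, 75.1 and 81.1 CPM in iEF and at 5.47, 7.85 and 7.39 CPM in iLuc, a change of -3.47 (adjusted p = 1.49e-12). It was lower by -1.75 with WT-EF (adjusted p = 3.15e-08) and by -0.68 with mut9 (adjusted p = 0.00307), and was at 0.11 with DAF (adjusted p = 0.780). POSTN, a matrix protein that brings BMP1 and LOX together, was lower by -4.13 in endo-EF (adjusted p = 1.37e-08) but higher by 1.76 with DAF (adjusted p = 0.00102), by 2.20 with DAF-mut9 (adjusted p = 5.04e-04) and by 2.19 with del22 (adjusted p = 8.31e-04). POSTN was at 0.72 with WT-EF (adjusted p = 0.0869) and at 0.49 with mut9 (adjusted p = 0.339), so it was not lower with these forms either. WT-EF was above iLuc by 4.85 (adjusted p = 1.35e-08). The POSTN levels were 16.3, 21.7 and 30.1 CPM in iEF and 63.0, 117 and 129 CPM in del22.

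Of 8 microfibril genes, 5 were lower and 2 higher in endo-EF (median -1.10). FBN1, the main fibrillin, was lower by -2.57 (adjusted p = 7.41e-10) and by -1.05 with WT-EF (adjusted p = 1.44e-04). MFAP4 went the other way, from 4.84 ± 2.02 CPM in iEF to 41.5 ± 21.2 in iLuc (SD, n = 3), a rise of 3.08 (adjusted p = 1.43e-07), with rises of 2.19 under WT-EF (adjusted p = 2.09e-05) and 1.99 under mut9 (adjusted p = 1.45e-04). Of 5 genes for copper supply, 2 were lower and 1 higher (median 0.09), against 22.4% of all genes lower. The copper chaperone ATOX1 was lower by -1.58 (adjusted p = 1.20e-07), and ATP7A, the pump that loads copper onto secreted enzymes, was higher by 0.73 (adjusted p = 2.88e-04). With mut9, DAF, DAF-mut9 and del22, 0 copper genes were called.

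LOX is itself induced by hypoxia. Of 9 other targets of the hypoxia-inducible factor, 3 were lower and 1 higher in endo-EF (median -0.29), against 22.4% of all genes lower. With WT-EF 5 were lower (median -0.86), against 16.9% of all genes, and with mut9 4 (median -0.68), against 8.33%. ADM, a vasodilator peptide gene, was lower by -3.78 in endo-EF (adjusted p = 1.40e-09), by -2.23 with WT-EF (adjusted p = 2.18e-06) and by -1.17 with mut9 (adjusted p = 0.00372). NDRG1 was lower by -4.10 (adjusted p = 5.22e-12), by -2.21 with WT-EF (adjusted p = 3.96e-08), by -1.29 with mut9 (adjusted p = 6.37e-05) and by -0.73 with DAF (adjusted p = 0.0204). Without replicate 2 of iEF, the endo-EF counts of lower genes were 6 substrates, 4 hydroxylation genes, 6 processing genes, 5 microfibril genes, 1 copper gene and 4 hypoxia targets. The substrates called higher were then 4 rather than 2 in DAF, and 2 rather than 0 in both DAF-mut9 and del22. In mut9, 1 processing gene rather than 3 and 1 substrate rather than 2 were then lower.

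The genes whose pattern over the 7 groups was most like LOX, LOXL1, LOXL2 or LOXL3 were found among 10779 genes with a mean of at least 5 CPM, as the smallest root mean square difference between group means of log2 CPM, each centred on its own mean. For LOX these were HSPB8 (0.11), PHLDA1 (0.17) and GPRC5A (0.17), and for LOXL1 they were COL1A2 (0.07), FAM20C (0.08) and PDP1 (0.09). COL1A2, a chain of collagen I, was at 1045 CPM in iEF, 184 in iLuc and 452 with WT-EF by mean. For LOXL2 they were ITGA11 (0.21), ETS1 (0.24) and LINC00973 (0.24). ITGA11, a collagen-binding integrin subunit, went from 29.1 CPM in iEF to 0.241 in iLuc. For LOXL3 they were PYGB (0.11), BIN1 (0.12) and KCTD9 (0.12), where the iEF mean of LOXL3 rests on replicate 2. Within the family LOX and LOXL2 were the closest pair, at 0.30, followed by LOXL1 and LOXL3, at 0.41, and LOXL2 and LOXL3 were the farthest apart, at 1.61.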

How the data were processed

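RNA of A673 cells was sequenced in 21 libraries (7 groups of 3), grouped by their labels. The authors aligned reads to hg19 with STAR (version 2.5.1b in the submitters' processing notes, another version in the methods) and deposited the raw counts per Ensembl gene from htseq-count in intersection-strict mode. The strand setting and annotation release are not given in the sources used here. The authors also deposited ComBat-adjusted counts, a signal adjusted for replicate set, which were used only as an alternative and hold 26325 genes, and a table of their own DESeq2 fold changes, standard errors and p-values, which was not used here. The columns headed mut9d were taken for DAF-mut9, the only group without columns under its own name, and every DAF-mut9 value depends on this.

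The counts were fitted with edgeR 4.0.16 under R 4.3.3. Genes averaging 1 count or more per library (30549 of 57820) were scaled by TMM and entered a quasi-likelihood fit on group and replicate set, since the authors adjusted for the set. Genes were called at a Benjamini-Hochberg adjusted p below 0.05. The SE is the absolute log2 fold change over the root of F. Levels are CPM with TMM-scaled library sizes, and log2 CPM used a prior count of 2. Library totals of 32.9 to 46.2 M set the counting precision. Counts of replicates were compared in 21 pairs, and none was close enough to be 1 library deposited again. Alternatives were DESeq2 1.42.0, no replicate block, RLE, no low-count filter, filterByExpr, the ComBat signal as log2 (value per 1e6 + 0.5) with limma 3.58.1, the compared groups only, and each library left out. The fit of the pathway genes without replicate 2 of iEF was chosen after seeing the data. The scripts were tested on simulated counts. Named genes beside the members were the 2 with the largest change in endo-EF of each list among those called with a mean of at least 5 CPM, genes sharing exon bases, and the 3 nearest in pattern (those of LOXL4 are not reported here). Members and lists were chosen with earlier results of these data known. Promoter sequences are from RefSeq on GRCh38.p14, which covered 4 of the 5 members here.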

Additional observations from a re-analysis of the deposited data

Results flagged for a closer look

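LOXL2 was picked out because the effect of the tyrosine to alanine changes differed between the 2 forms of the EWS domain by a test of the difference itself. The difference was -1.15 on the log2 scale (SE 0.25, adjusted p = 0.00981 by edgeR's quasi-likelihood test), from 0.73 in the shortened form and 1.88 in the full-length form. The other 4 members did not pass this test, although LOXL4 (-1.51) was called when only the compared groups were fitted (adjusted p = 0.0329). LOX and LOXL4 were called with no low-count filter. Of the picked pathway genes, BMP1 (-1.20), PLOD2 (-1.03) and PLOD3 (-0.68) were also called lower, so the result is not particular to LOXL2. LOXL2-AS1, which overlaps LOXL2 on the other strand, was at -1.28 in the same test (adjusted p = 0.0297). Without strand the reads of the pair cannot be told apart where they overlap. The LOXL2 call held in 9 of 12 fits with a library left out and was lost on the ComBat-adjusted values (limma, adjusted p = 0.656). LOXL2 means were alike in DAF (106 CPM), DAF-mut9 (110) and del22 (102), while mut9 was above WT-EF by 1.21. The difference thus lay mainly between the forms without alanine changes. With 13 comparisons of 5 genes no other member met a rule of this kind, and groups of 3 libraries are too small for a test of single libraries that stand apart.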

How the results depend on the processing

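Scaling by RLE and the filterByExpr filter changed no call of a member, and DESeq2 added 1. Over all alternatives, 740 of the members' values kept their direction and side of the threshold, 77 lost a call, 23 gained one and 22 turned sign. No value called with all libraries turned sign, but LOXL3 in del22 over iEF turned from -0.08 to a called 0.88 without replicate 2 of iEF. With each library left out in turn, the number of members called ran from 4 to 5 for iLuc over iEF, 4 to 5 for WT-EF over iEF, 2 to 5 for mut9 over iEF, 0 to 2 for DAF over iEF, 0 to 1 for DAF-mut9 over iEF, 0 to 1 for del22 over iEF, 1 to 3 for mut9 over WT-EF, 0 to 2 for mut9 over DAF, 1 to 4 for DAF-mut9 over mut9 and 0 to 1 for the difference of the tyrosine effects. Fewer libraries enter these fits. Over all genes the number called then ran from 2688 to 4045 for mut9 over iEF (4445 with all libraries). It ran from 1312 to 2136 for DAF over iEF (2268) and from 323 to 1131 for DAF-mut9 over iEF (1038). For del22 over iEF it ran from 185 to 919 (817), and for mut9 over WT-EF from 696 to 1817 (1878). For DAF-mut9 over mut9 it ran from 1754 to 2550 (3003), and for the difference from 505 to 1157 (1017).

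On the ComBat-adjusted values with limma, which hold 4 members, 3 were called for WT-EF over iEF, 2 for mut9 over iEF, 0 for DAF over iEF, 0 for del22 over iEF, 0 for mut9 over WT-EF, 2 for DAF over WT-EF, 0 for mut9 over DAF, 2 for DAF-mut9 over mut9 and 0 for the difference. With only the compared groups fitted, 3 were called for mut9 over iEF, 2 for DAF over del22 and 2 for the difference. With no low-count filter, 3 were called for DAF-mut9 over iEF, 2 for del22 over iEF, 5 for mut9 over DAF, 2 for DAF over del22 and 3 for the difference. The share of all genes called on the ComBat-adjusted values is not given here, and the cause of these changes was not tested.

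With no replicate block, 1 member was called for DAF over iEF, 0 for del22 over iEF, 1 for mut9 over DAF and 3 for DAF-mut9 over mut9, and LOXL3 was at -0.11 for DAF-mut9 over iEF. Deviations from the group means over 10779 genes correlated with a median of 0.161 in 63 pairs of libraries with the same number (-0.192 to 0.652, 43 above 0.1) and -0.095 in 126 pairs with other numbers, so not every pair shows a shared number and the block stands for the set that the authors adjusted.

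The values that turned sign had not passed the test. LOXL3 in del22 over iEF was at 0.19 on the ComBat-adjusted values and at 0.16 with the compared groups only, LOXL4 there was at 0.0766 with the compared groups only, and LOXL1 was at 0.00434 in the difference on the ComBat-adjusted values. With a library left out, LOXL1 ran from -0.39 to 0.0539, LOXL3 from -0.84 to 0.49 and LOXL4 from -1.77 to 0.18 in DAF over iEF. In DAF-mut9 over iEF they ran from -0.17 to 0.28, from -0.32 to 1.02 and from -1.08 to 0.86, and in del22 over iEF from -0.31 to 0.15, from -0.46 to 0.88 and from -0.92 to 1.23. In DAF over del22 LOXL1 ran from -0.28 to 0.0299 and LOXL2 from -0.0777 to 0.20, and in the difference LOXL1 ran from -0.27 to 0.0946.

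Over all genes, the number called moved from 2268 to 1510 for DAF over iEF, from 1878 to 5116 for mut9 over WT-EF, from 3003 to 4848 for DAF-mut9 over mut9, from 297 to 682 for DAF over del22 and from 1017 to 2408 for the difference with the compared groups only. It moved to 2243 from 1038 for DAF-mut9 over iEF, to 2144 from 817 for del22 over iEF, to 3082 from 2018 for mut9 over DAF, to 906 for DAF over del22 and to 2007 for the difference with no low-count filter. With no replicate block it was 684, 508 and 178 for DAF-mut9 over iEF, del22 over iEF and DAF over del22, and with DESeq2 it was 458 for DAF over del22 and 1585 for the difference. Depth limits LOXL3 and LOXL4 most, since LOXL4 had 26 to 42 counts in the iLuc libraries.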

Other observations

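In the ComBat-adjusted values that the authors deposited, scaled per library to 1e6, LOX was at 2.46, 21.5 and 27.9 in iLuc (17.3 ± 13.2, SD, n = 3), where the raw counts gave 6.37, 3.98 and 3.96 CPM. LOXL2 was at 0.249, 12.3 and 10.7 in iLuc, where the raw counts gave 2.11, 1.97 and 1.88 CPM. In iEF the LOX values were 294, 289 and 378 beside 319, 299 and 422 CPM. The iLuc libraries of these genes were thus farther apart after adjustment than before, and the cause was not tested. The ComBat-adjusted values hold no LOXL4, so it could not be read on that scale.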
